A study of Mus musculus with 161 samples.

Results

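The cells described here are the dividing cells among unpolarized (M0) and IL-4-polarized (M2) mouse bone marrow-derived macrophages profiled by single-cell RNA-seq. A cell barcode was taken as cycling when it held 3 or more unique transcript counts (UMIs, unique molecular identifiers) summed over 9 cell-cycle genes, Top2a, Birc5, Mki67, Cenpf, Prc1, Pbk, Ube2c, Ccnb1 and Cdk1, called the gate genes below. This gave 3383 of the 16791 barcodes in 5 libraries (20.15%), out of 22881 barcodes in all 7 single-cell libraries. They are compared with the 10080 barcodes of the same libraries that held 0 gate UMIs, and the 3328 barcodes with 1 or 2 gate UMIs were kept apart. The members were thus chosen by measured gate UMIs, as was the class they are set against, and every difference between the classes is given as a description without a test.

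All cultures came from femur marrow of C57BL/6J mice aged 6 to 10 weeks, grown in RPMI-1640 with 20% horse serum and 20 ng/mL M-CSF and stimulated on day 7. The M2 cultures then received 25 ng/mL IL-4 for 6 h or 24 h, the M1 cultures 100 ng/mL LPS with 25 ng/mL IFN-γ, and the M0 cultures base medium alone for 0, 6 or 24 h. Each single-cell condition is 1 library from 1 biological replicate, so differences between the libraries have no replicate check, and the 95% intervals given for shares, levels and ratios cover counting error only. The bulk RNA-seq libraries of the same time course, 3 per condition, were used for the tests.

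M-CSF, the growth factor in these cultures, keeps macrophage precursors alive and drives their division, and mature macrophages in culture can still divide. A cell that enters the cycle first makes the enzymes and helicases that copy DNA (S phase), and then the kinases, motors and kinetochore proteins that separate the chromosomes (G2 and mitosis). IL-4 acts through STAT6 to switch on the alternative activation program, and LPS with IFN-γ drives the inflammatory one. Among the gate genes, Top2a encodes the topoisomerase that untangles replicated DNA, Birc5 encodes survivin of the chromosomal passenger complex, and Mki67 encodes a protein that coats mitotic chromosomes. Cenpf encodes a kinetochore protein, Prc1 bundles microtubules at the spindle midzone, and Pbk encodes a mitotic kinase. Ube2c encodes the ubiquitin-conjugating enzyme of the anaphase-promoting complex, and Ccnb1 and Cdk1 encode cyclin B1 and its kinase.

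The 5 libraries held 5725353 to 8456562 UMIs in 2446 to 5985 barcodes. Median UMIs per barcode were lowest in 0 h M0 (1025) and between 1751 and 2529 in the other 4. Cycling barcodes were deeper than 0-UMI barcodes in every library, with medians of 1563 to 3173 UMIs against 955 to 2283 UMIs. Mitochondrial UMIs made up 1.07 to 1.68% of all UMIs in cycling barcodes and 1.11 to 2.02% in 0-UMI barcodes. Any 2 libraries shared 6 to 25 barcode sequences, and in 3 pairs of libraries a single shared barcode was cycling in both.

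At the threshold of 3 gate UMIs, cycling barcodes were most frequent at 6 h in M0 and least frequent before stimulation. With 5 or more gate UMIs 24 h M2 (19.7%) was above 6 h M0 (19.1%), and among barcodes of 2000 to 6000 UMIs the 0 h M0 share was 24.7%, against 26.1% in 24 h M0. With 3 or more at 0 h, 646 of 5985 M0 barcodes were cycling (10.8%, exact Clopper-Pearson 95% interval 10.0 to 11.6%). At 6 h the share was 26.4% in M2 (715 of 2709, 24.7 to 28.1%) and 29.1% in M0 (711 of 2446, 27.3 to 30.9%). At 24 h it was 27.1% in M2 (792 of 2924, 25.5 to 28.7%) and 19.0% in M0 (519 of 2727, 17.6 to 20.6%). The M1 libraries mark the level reached where few cells divide, with 78 of 3248 barcodes at 6 h (2.40%, 1.9 to 2.99%) and 1 of 2842 at 24 h (0.0352%). At least 1 gate UMI was found in 2.78% of 24 h M1 barcodes (median 2056 UMIs), against 27.1 to 54.1% of the barcodes in each M0 and M2 library.

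A fixed UMI count is easier to reach in a deeper barcode, so the share was also taken at equal depth. When each barcode was thinned to 1000 UMIs, the cycling share was 10.1% in 0 h M0, where 2899 shallower barcodes were left out. At 6 h it was 11.7% in M2 (10.6 to 13.01%) and 16.8% in M0 (15.3 to 18.4%), with 0 and 211 barcodes left out. At 24 h it was 15.1% in M2 (13.8 to 16.6%) and 13.2% in M0 (11.9 to 14.7%), with 211 and 460 barcodes left out. At 1000 UMIs the 24 h intervals of M2 and M0 therefore overlapped, whereas at 6 h the M2 share lay below the M0 share. Thinned to 500 UMIs, the 6 h share was 4.36% in M2 (3.62 to 5.19%) and 5.56% in M0 (4.69 to 6.54%). Those 6 h intervals overlapped. In counts per 1000000 UMIs (CPM) over all barcodes of a library, the gate genes summed to 645 CPM in 0 h M0. The sum was 874 CPM in 6 h M2 against 1120 CPM in 6 h M0, and 1033 CPM in 24 h M2 against 989 CPM in 24 h M0.

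**Figure D1:**
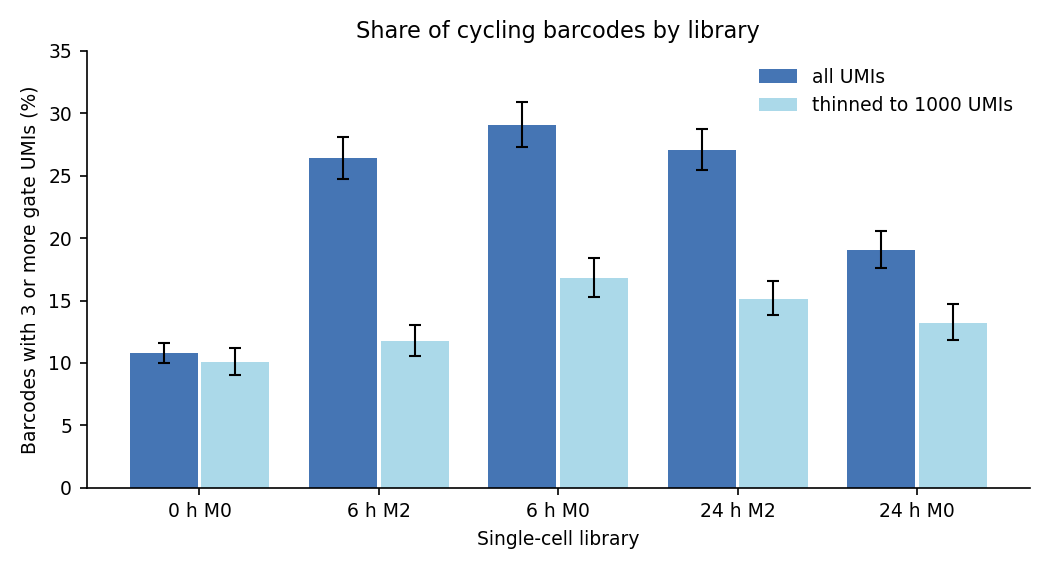
Share of barcodes with 3 or more gate UMIs, in percent, in each of the 5 M0 and M2 single-cell libraries, from all UMIs (dark bars) and after thinning to 1000 UMIs per barcode (light bars), with exact 95% Clopper-Pearson intervals as error bars. With all UMIs the bars lie between 10.8 and 29.1%, and after thinning between 10.1 and 16.8%.

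Within the cycling barcodes, Birc5 and Ube2c were the most often detected of the gate genes at 24 h, while Top2a and Cdk1 were detected more often at 6 h than at 24 h. Birc5 had a UMI in 77.7% of cycling barcodes at 0 h, in 80.1% (M2) and 77.9% (M0) at 6 h, and in 83.5% (M2) and 85.5% (M0) at 24 h. Ube2c had one in 55.7% at 0 h, in 69.6% (M2) and 66.8% (M0) at 6 h, and in 79.2% (M2) and 75.1% (M0) at 24 h. Top2a ran the other way, with 63.3% at 0 h, 69.5% (M2) and 65.7% (M0) at 6 h, and 59.6% (M2) and 51.4% (M0) at 24 h. Cdk1 was found in 45.5% at 0 h, in 60.7% (M2) and 58.2% (M0) at 6 h, and in 50.5% (M2) and 44.7% (M0) at 24 h. Ccnb1 was the least often detected gate gene, with a UMI in 8.67 to 20.8% of cycling barcodes. The median cycling barcode held UMIs of 3 of the 9 gate genes in 0 h M0 and of 4 in the other 4 libraries. A single gate gene carried all gate UMIs in 1.55 to 6.36% of cycling barcodes, and between 1 and 9 barcodes per library held all 9.

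Barcodes just inside the threshold resembled those just outside more closely than they resembled the most strongly positive ones. Summed over the chromosome and spindle list, barcodes with 3 gate UMIs held 3336 CPM in 0 h M0, 2031 CPM in 6 h M2, 2229 CPM in 6 h M0, 2299 CPM in 24 h M2 and 2294 CPM in 24 h M0. Barcodes with 2 gate UMIs held 2354, 1433, 1657, 1431 and 1228 CPM in the same libraries. Barcodes with 10 or more held 4029 to 5282 CPM, and barcodes with 0 held 458 to 569 CPM. The class therefore has a graded edge, with 310, 195, 198, 171 and 155 barcodes at 2 gate UMIs and 185, 125, 137, 116 and 105 at 3.

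The label of cycling cells was checked on cell-cycle genes that were not in the gate. Of the 5722 genes outside the gate that had at least 50 UMIs over both classes in every library, 1490 (26.0%) had a higher CPM in cycling than in 0-UMI barcodes in all 5 libraries, 881 (15.4%) had a lower one in all 5, and 146 (2.55%) were at least 2-fold higher in all 5. The median log2 ratio over these genes was 0.05. Of 64 G2/M genes outside the gate, 50 reached the UMI minimum, 49 of them were higher in all 5 libraries and 45 at least 2-fold, with a median log2 ratio of 3.34. The chromosome and spindle list gave 33 higher of 34 counted, 31 of them at least 2-fold, and the same median of 3.34. A gene that is nearly confined to dividing cells reaches the minimum mostly through them, so these counts describe the genes that were measurable.

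The highest of these genes belong to the spindle and the kinetochore. Hmmr, whose product binds microtubules at the spindle poles, had 41.3, 53.0, 37.7, 66.8 and 72.7 CPM in cycling barcodes of 0 h M0, 6 h M2, 6 h M0, 24 h M2 and 24 h M0, against 0.99, 1.04, 1.64, 2.96 and 1.66 CPM in 0-UMI barcodes, a median log2 ratio of 5.15 over the libraries. Nusap1, a microtubule-binding protein of the spindle, had 56.3 to 111 CPM in cycling barcodes and 1.56 to 3.37 CPM in 0-UMI barcodes (median log2 ratio 4.95). Fam64a (median 4.73), the outer kinetochore gene Ndc80 (4.56), the mitotic kinase gene Plk1 (4.41) and Aurka, encoding a centrosomal kinase (3.92), followed. Each of these genes was higher in cycling barcodes of all 5 libraries.

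DNA replication genes were also higher, though with a larger level left in the 0-UMI barcodes. Of 49 S-phase genes, 30 reached the minimum, 27 were higher in all 5 libraries and 12 at least 2-fold, with a median log2 ratio of 1.44. Rrm2, the regulatory subunit of ribonucleotide reductase, had 163, 137, 152, 89.7 and 92.1 CPM in cycling barcodes of 0 h M0, 6 h M2, 6 h M0, 24 h M2 and 24 h M0, against 11.9, 8.83, 16.4, 4.84 and 2.32 CPM in 0-UMI barcodes. Tyms (thymidylate synthase) had a median log2 ratio of 3.13 and Tk1 (thymidine kinase) of 3.07. The replicative helicase genes depended on the library. Mcm3 had a log2 ratio of 0.02, Mcm4 of -0.27 and Mcm6 of -0.12 in 6 h M0, while in 24 h M0 the ratios were 1.66, 0.73 and 1.25 and in 24 h M2 1.84, 1.36 and 1.41.

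The balance between replication and mitotic transcripts differed between the early and the late libraries. More S-phase than spindle UMIs were held by 53.3% of cycling barcodes in 0 h M0 (exact interval 49.3 to 57.2%), 50.6% in 6 h M2 (46.9 to 54.4%) and 56.7% in 6 h M0 (52.9 to 60.4%). At 24 h the share was 25.6% in M2 (22.6 to 28.8%) and 18.7% in M0 (15.4 to 22.3%). The S-phase sum in cycling barcodes was 4756 CPM at 0 h, 3902 CPM (M2) and 4801 CPM (M0) at 6 h, and 2908 CPM (M2) and 2546 CPM (M0) at 24 h. The spindle sum moved little in comparison, between 3193 and 4145 CPM. Both 24 h single-cell libraries, M2 and M0, thus lay apart from the 0 h and 6 h libraries. The bulk libraries did not show this for M2, with an S-phase sum of 790 ± 75.5 FPKM in 6 h M2, 972 ± 92.1 FPKM in 24 h M2, 803 ± 98.2 FPKM in 24 h M0 and 853 ± 63.2 FPKM in 0 h M0 (SD, n = 3). The bulk S-phase sum per gate sum was 3.71 ± 1.03 in 6 h M2, 3.32 ± 0.35 in 24 h M2, 2.09 ± 0.34 in 24 h M0 and 3.07 ± 0.14 in 0 h M0. Bulk values cover all cells of a culture, and the single-cell shares above cover cycling barcodes only.

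The 0-UMI barcodes carried the same time pattern in summed CPM. Their S-phase sum was 1748 CPM at 0 h, 1688 CPM (M2) and 2621 CPM (M0) at 6 h, and 850 CPM (M2) and 675 CPM (M0) at 24 h, while their spindle sum stayed between 458 and 569 CPM. At least 5 S-phase UMIs were found in 12.6% of 0-UMI barcodes at 0 h, in 36.4% (M2) and 48.6% (M0) at 6 h, and in 10.8% (M2) and 4.69% (M0) at 24 h. A fixed count is easier to reach in deeper barcodes, so no order of the libraries is read from these shares. The median 0-UMI barcode held 955 UMIs in 0 h M0 and 1560 (24 h M0) to 2283 UMIs (6 h M2) in the others. The 0-UMI class of every library therefore holds barcodes with replication transcripts and is not a class without cycle genes.

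**Figure D2:**
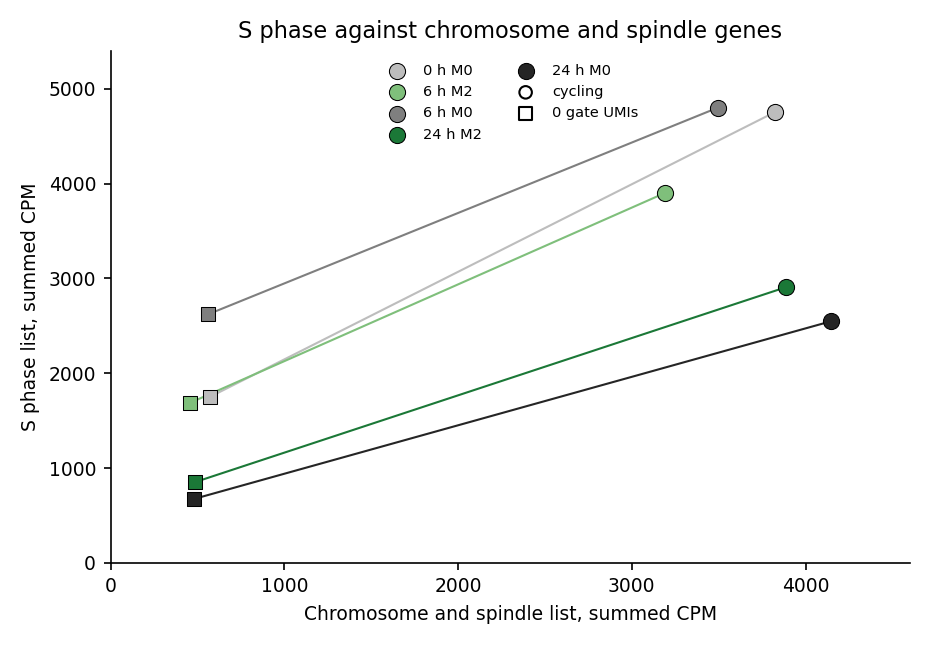
Summed CPM of the S-phase list (vertical axis) against summed CPM of the chromosome and spindle list (horizontal axis), with circles for cycling and squares for 0-UMI barcodes and a line joining both classes of a library. In cycling barcodes the 0 h and 6 h libraries lie at 3902 to 4801 CPM of S-phase transcripts and the 24 h libraries at 2546 and 2908 CPM, at similar spindle levels.

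Cyclins, kinases and their inhibitors were raised together in the cycling barcodes. Of 19 cyclin and kinase genes outside the gate, 13 reached the minimum, 11 were higher in all 5 libraries and 8 at least 2-fold. Ccna2, encoding the S and G2 cyclin A2, had a median log2 ratio of 4.37. The exceptions were the G1 genes Ccnd1 (cyclin D1), at a median of -0.40 and lower in all 5 libraries, and Cdk6, at -0.26. The Cdk6 ratio ran from -0.29 in 0 h M0 to 0.18 in 24 h M0. Among 7 CDK inhibitor and growth arrest genes counted, 6 were higher in all 5 libraries. Cdkn2d (p19INK4d), an inhibitor of CDK4 and CDK6, had 174, 119, 155, 155 and 197 CPM in cycling barcodes of 0 h M0, 6 h M2, 6 h M0, 24 h M2 and 24 h M0, against 16.4, 8.05, 9.44, 26.6 and 25.5 CPM in 0-UMI barcodes. Its relative Cdkn2c (p18INK4c) had a median log2 ratio of 2.68 and Cdkn3, a phosphatase that acts on CDKs, of 4.13. Cdkn2a was at 1.44 and Cdkn1a (p21) at 1.37, and Gadd45a was at -0.16 with ratios from -1.06 to 0.73. All 3 cycle regulator genes counted, E2f1 (0.57), E2f4 (0.34) and Rbl2 (0.66), were higher in all 5 libraries and none by 2-fold in all of them.

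Chromatin genes followed the cycle, with 18 of 18 counted higher in all 5 libraries, 13 of them at least 2-fold. The linker histone gene Hist1h1b had 87.7, 96.3, 77.7, 50.5 and 80.4 CPM in cycling barcodes of 0 h M0, 6 h M2, 6 h M0, 24 h M2 and 24 h M0, and 3.17, 0.78, 2.46, 0 and 1.99 CPM in 0-UMI barcodes. H2afx, a histone variant marked at DNA breaks, had a median log2 ratio of 3.34 and the histone chaperone gene Asf1b of 3.77. Hist1h2bc (-1.50) and Hist3h2a (-1.38) were lower in all 5 libraries, and histone genes share near-identical copies, so their counts are uncertain.

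Among genes outside the gate and the S-phase, G2/M, cyclin and kinase, regulator, spindle and chromatin lists (the CDK inhibitor list was not set aside here), the 15 with the highest median ratios (2.88 to 4.55) included several that encode known parts of the division machinery. Ska1 (4.55) and Ska2 (2.96) encode subunits of a kinetochore complex, Knstrn (3.50) a spindle protein, and Kifc1 (3.92) a minus-end motor. Cenpl (2.88) acts at the centromere. Fbxo5 (4.03) encodes the inhibitor of the anaphase-promoting complex called EMI1. Melk (3.70) encodes a kinase and Iqgap3 (3.48) a scaffold protein. Lockd, a long noncoding RNA transcribed downstream of Cdkn1b, had 408, 210, 316, 295 and 337 CPM in cycling barcodes of 0 h M0, 6 h M2, 6 h M0, 24 h M2 and 24 h M0, against 30.1, 12.2, 23.0, 21.0 and 16.6 CPM in 0-UMI barcodes. Trim59 (3.33), Ube2t (2.98) and Cks1brt (3.09), a near-identical copy of Cks1b and therefore uncertain, were also among the 15, as were Cdkn3 and Cdkn2d.

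Genes of nuclear RNA processing and nuclear transport were moderately higher, and housekeeping programs were nearly level. Of 14 nuclear RNA processing genes counted, 13 were higher in all 5 libraries, with a median log2 ratio of 0.56. Anp32b, a histone-binding nuclear protein, had a median of 1.18, the splicing factor gene Srsf7 of 1.00 and the prothymosin gene Ptma of 0.99. Ran (1.14) and Ranbp1 (0.93), which drive transport across the nuclear envelope, led the ribosome biogenesis and folding list, of which 8 of 21 were higher in all 5 libraries. The ribosomal protein list had a median of 0.10 (15 of 28 higher, 1 lower) and the oxidative phosphorylation list of 0.04 (8 of 26 higher, 3 lower).

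Most macrophage identity genes counted were at a lower level in cycling than in 0-UMI barcodes. Of 20 macrophage genes counted, 15 were lower in all 5 libraries and 1, the transcription factor gene Cebpb, was higher, with a median log2 ratio of -0.48. Lyz2 (lysozyme) had a UMI in 96.5 to 99.9% of cycling barcodes, Csf1r, the M-CSF receptor, in 42.1 to 71.3%, Adgre1 (F4/80) in 28.7 to 44.6% and Mertk in 0.77 to 3.47%. Csf1r was at 319 to 508 CPM in cycling and 418 to 844 CPM in 0-UMI barcodes, and Adgre1 at 152 to 241 CPM against 200 to 441 CPM. The complement gene C1qb was at 741 to 1566 CPM in cycling and 1030 to 2618 CPM in 0-UMI barcodes, and Cd68 at 696 to 867 CPM against 835 to 1179 CPM.

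Lysosome and cholesterol genes shared this direction. Of 21 lysosome genes 16 were lower in all 5 libraries (median -0.33), among them Ctsd (cathepsin D, -0.53) and Atp6v0d2 (-0.86), a subunit of the proton pump. Of 15 cholesterol synthesis genes 9 were lower in all 5 (median -0.32), led by Mvd (-0.85) of the mevalonate pathway. The apolipoprotein gene Apoe was lower in every library, with a median of -0.55, the only one of 3 LXR target genes counted to be so. The 15 genes with the lowest medians on no cycle list lay between -1.50 and -0.88. Mmp9, a secreted gelatinase, was at 20.2, 31.6, 24.6, 25.2 and 19.4 CPM in cycling barcodes of 0 h M0, 6 h M2, 6 h M0, 24 h M2 and 24 h M0, against 41.0, 94.3, 66.1, 55.4 and 69.3 CPM in 0-UMI barcodes. Sepp1, encoding the secreted selenium carrier, had a median of -1.09, the myeloid genes Lst1 -0.99 and Aif1 -0.96, the ubiquitin-like interferon target Isg15 -1.02, and Mxd4, an antagonist of MYC, -0.88. Aldoc (-1.15), Hotairm1 (-0.95), Tk2 (-0.91), Xylt2 (-0.90), Arhgap25 (-0.89), Kdm7a (-0.89) and Pygl (-0.89) complete the 15 with both histone genes named above.

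Of 9 inflammatory cytokine and chemokine genes counted, 3 were higher in all 5 libraries and 1 was lower (median 0.09). Ccl2, the monocyte attractant, was higher in cycling barcodes of every library, at 645, 2582, 922, 462 and 191 CPM in 0 h M0, 6 h M2, 6 h M0, 24 h M2 and 24 h M0, against 186, 2267, 424, 276 and 34.8 CPM in 0-UMI barcodes. Its log2 ratio ran from 0.19 in 6 h M2 to 2.45 in 24 h M0. Ccl6 was lower in every library, with a median of -0.76.

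**Figure D3:**
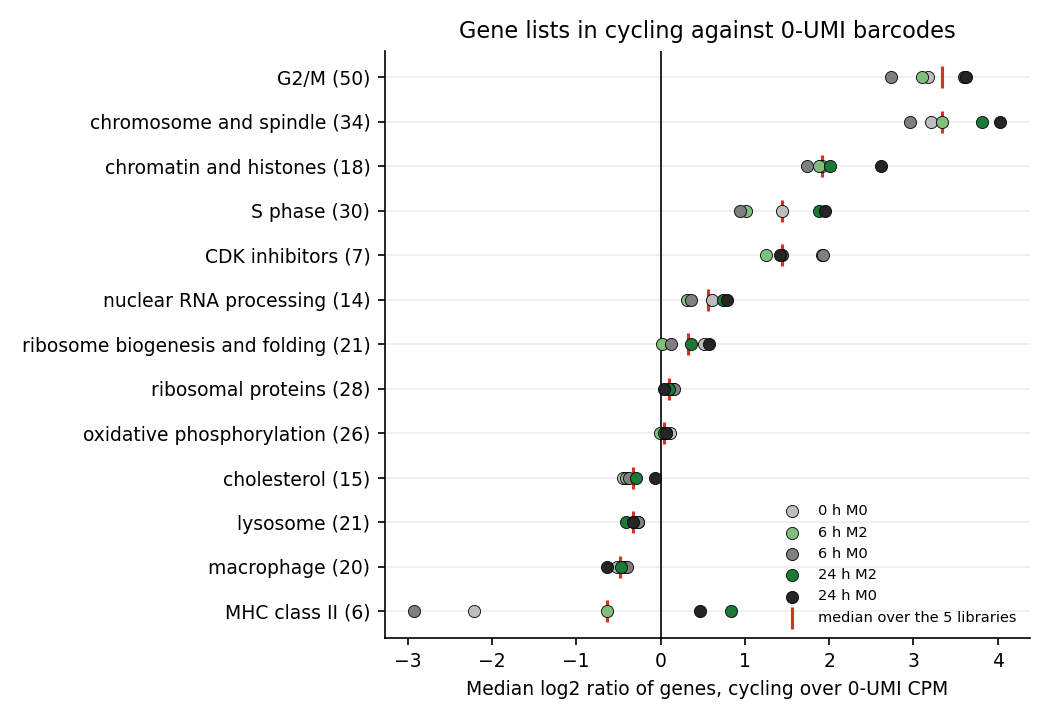
Median log2 ratio of cycling over 0-UMI barcodes for each gene list, with 1 point per library, a red tick at the median over the 5 libraries and the number of genes counted in brackets. The G2/M and spindle lists lie between 2.73 and 4.03, macrophage and lysosome lists lie below 0 in all libraries, and MHC class II lies between -2.92 and 0.84.

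Defining markers of several other blood lineages were at or near 0 in the cycling barcodes. Cd79a and Ms4a1 of B cells had 0 UMIs in all 3383 barcodes, as had Ly6g and Elane of neutrophils, Cpa3 and Fcer1a of mast cells, and Ccr7 and Xcr1 of dendritic cells. Kit had 1 UMI, Myb 3 and Mpo 7, which mark stem and progenitor cells and granulocyte precursors. Further neutrophil list genes were present in cycling and 0-UMI barcodes, Ctsg with 14 and 3 UMIs, Prtn3 22 and 15 and Cebpe 37 and 42. S100a8 had 79 and 214 and S100a9 8 and 19. On the monocyte list Ly6c2 had 42 and 13 and F13a1 44 and 120, and Gata2 of the mast cell list had 27 and 23. The 0-UMI barcodes held more UMIs in every library, so equal counts are a higher CPM in cycling barcodes. Other genes of the stem and progenitor list were present, with 488 UMIs of Cdk6, 130 of Sox4 and 55 of Cd34 in cycling barcodes. Cd34 had 39 UMIs in 0-UMI barcodes, and its CPM was higher in cycling barcodes in all 5 libraries. That list summed to 51.6 to 94.4 CPM in cycling and 54.6 to 123 CPM in 0-UMI barcodes, the monocyte list to 36.0 to 132 CPM against 33.0 to 137 CPM, and the osteoclast list to 58.2 to 146 CPM against 75.4 to 171 CPM. Their part in the differences between the classes was not tested. Summed over each whole list, T and NK cell genes reached 0 to 1.17 CPM in cycling and 0 to 3.70 CPM in 0-UMI barcodes, erythroid genes 0 to 1.17 CPM against 0.66 to 0.99 CPM, and neutrophil genes 12.0 to 28.8 CPM against 7.80 to 30.9 CPM. The 6 B cell genes summed to 2.33 to 16.6 CPM, all of it Cd79b. The dendritic cell list summed to 4.22 to 123 CPM in cycling and 13.1 to 170 CPM in 0-UMI barcodes. The megakaryocyte list was carried by Pf4, which 0-UMI barcodes also held, at 2982 to 6811 CPM in cycling and 3901 to 8828 CPM in 0-UMI barcodes.

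MHC class II genes, which present peptides to CD4 T cells, differed in direction between libraries. Their summed level was 195 CPM in cycling and 848 CPM in 0-UMI barcodes of 0 h M0, 1120 CPM against 1691 CPM in 6 h M2, and 202 CPM against 1236 CPM in 6 h M0. At 24 h it was 3041 CPM in cycling and 2103 CPM in 0-UMI barcodes of M2, and 617 CPM against 496 CPM in M0. In the M0 libraries the level rested on few barcodes, and in 24 h M2 on more. Those with 10 or more MHC class II UMIs numbered 3 cycling and 52 0-UMI barcodes in 0 h M0, 38 and 77 in 6 h M2, 8 and 20 in 6 h M0, 195 and 194 in 24 h M2, and 14 and 15 in 24 h M0. Without them the sums were 123 CPM in cycling against 189 CPM in 0-UMI barcodes of 0 h M0, 347 against 384 CPM in 6 h M2, 122 against 140 CPM in 6 h M0, 911 against 958 CPM in 24 h M2 and 197 against 230 CPM in 24 h M0. This set was chosen after the data had been seen and cuts on the value compared, at a UMI count that the deeper cycling barcodes reach more easily, so no order of the classes is read from it. What sets those barcodes apart was not tested.

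The IL-4 response was next compared between the classes, as M2 over M0 at the same hour. Of 5842 genes with enough UMIs, 223 (3.82%) were at least 2-fold higher in M2 at 6 h in cycling barcodes and 224 (3.83%) in 0-UMI barcodes. At 24 h the counts were 305 (5.22%) in cycling and 348 (5.96%) in 0-UMI barcodes. The lists shared 166 genes at 6 h, 74.4% of the cycling and 74.1% of the 0-UMI list, and 214 genes at 24 h, 70.2% and 61.5%. No gene was 2-fold higher in one class and 2-fold lower in the other. With 1 library per condition these counts describe the libraries only. Of the 24 IL-4 response genes counted, 17 were at least 2-fold higher at 6 h and 21 at 24 h in cycling barcodes, and 20 and 22 in 0-UMI barcodes. The list's median log2 ratio was 4.03 in cycling and 3.75 in 0-UMI barcodes at 6 h, and 4.33 against 4.76 at 24 h. With genes at 0 UMIs in M0 set to their lower bounds, the medians were 3.89 and 3.75 at 6 h and 3.84 and 4.48 at 24 h. A gene could reach the UMI minimum through M2 alone, as Retnla did. The counts of genes higher in M2 and the medians therefore describe the genes that were measurable.

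Arg1, which converts arginine to ornithine, was present in most barcodes of both classes in M2. In 6 h M2 it stood at 3225 CPM in cycling and 2372 CPM in 0-UMI barcodes, and in 24 h M2 at 3081 CPM against 3301 CPM, while in M0 it had 10 UMIs or fewer in cycling barcodes. At 24 h Arg1 had a UMI in 95.7% of cycling and 90.8% of 0-UMI barcodes of the M2 library. Retnla, encoding the secreted protein RELMα, was lower in cycling barcodes, at 379 CPM against 937 CPM in 6 h M2 and at 10230 CPM against 15860 CPM in 24 h M2. It had 0 UMIs in M0 at both times, so with a floor of 3 UMIs per class it was at least 4922-fold higher in 24 h M2 than in 24 h M0 in cycling and at least 15940-fold higher in 0-UMI barcodes. The chitinase-like gene Chil3 was at 671 CPM in cycling and 944 CPM in 0-UMI barcodes of 24 h M2. Cish, a feedback inhibitor of STAT signaling, was higher in cycling barcodes, at 75.7 CPM against 43.9 CPM in 24 h M2. Il4i1, a secreted amino acid oxidase, was at 78.8 CPM in cycling and 161 CPM in 0-UMI barcodes.

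Within 24 h M2, 14 of the 31 IL-4 response genes counted there were higher in cycling than in 0-UMI barcodes and 17 lower, and the counting interval lay above 0 for 6 and below 0 for 10 of them. Within 6 h M2, 9 of 32 were higher and 23 lower, with intervals above 0 for 3 and below 0 for 17. Ccl17 and Ccl22, ligands of CCR4, had log2 ratios of -3.25 and -4.53 in 6 h M2. Both ratios rested on few barcodes. Ccl17 had a UMI in 1.68% of cycling and 2.03% of 0-UMI barcodes, and Ccl22 in 0.56% and 1.81%. Ccl22 is also on the dendritic cell list, and its ratio in 24 h M2 was -0.76. The MHC class II list had a median M2 over M0 log2 ratio of 2.63 in cycling and 0.34 in 0-UMI barcodes at 6 h, and at 24 h the medians were 1.57 and 0.96. Without barcodes of 10 or more MHC class II UMIs (20 0-UMI barcodes in 6 h M0) the summed level at 6 h was 347 CPM in M2 against 122 CPM in M0 in cycling barcodes and 384 CPM against 140 CPM in 0-UMI barcodes.

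**Figure D4:**
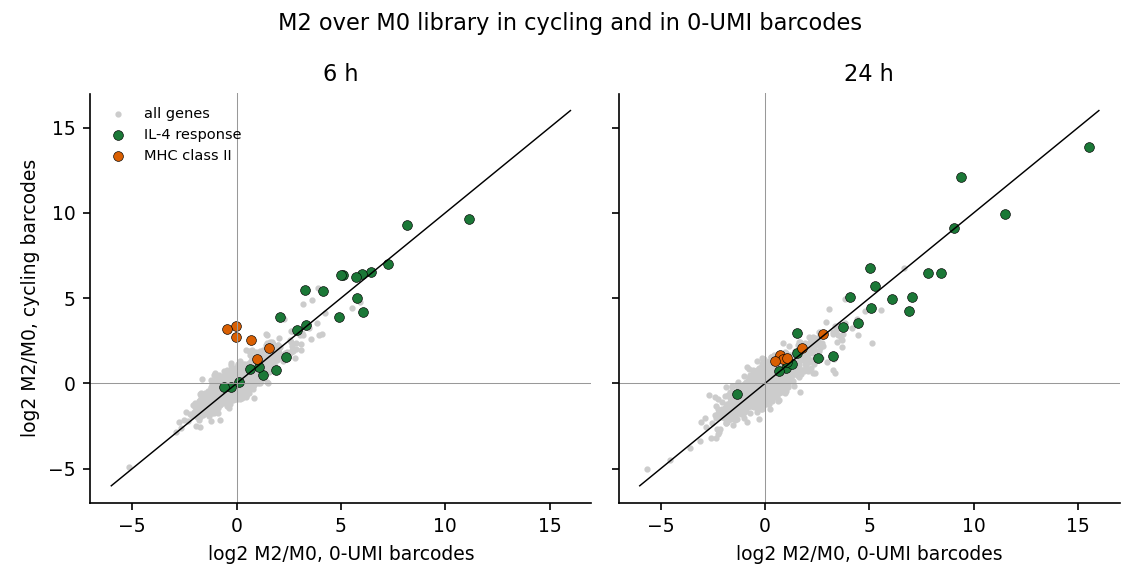
Log2 ratio of M2 over M0 in cycling barcodes against the same ratio in 0-UMI barcodes, at 6 h and 24 h, with 1 point per gene, the diagonal of equal ratios, and the IL-4 response (green) and MHC class II (orange) genes marked. Points of genes at 0 UMIs in M0 depend on the 1 UMI added. IL-4 response genes lie near the diagonal, with medians of 4.03 (cycling) and 3.75 (0-UMI) at 6 h and 4.33 and 4.76 at 24 h.

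Cycling barcodes also lay close to each other in expression space once the gate genes and most cell-cycle lists were removed. Each barcode's 15 nearest neighbors in its own library were taken from the first 20 components of a principal component analysis of 1500 variable genes. The gate genes and the S-phase, G2/M, cyclin and kinase, regulator, spindle and chromatin lists were left out, and the CDK inhibitor list was not. The neighbors of a cycling barcode were cycling in 43.1% of cases at 0 h, in 64.2% (M2) and 60.5% (M0) at 6 h, and in 61.3% (M2) and 52.3% (M0) at 24 h. For 0-UMI barcodes the figures were 4.20, 10.3, 14.5, 9.42 and 7.70% in that order. Cycling barcodes made up 10.8, 26.4, 29.1, 27.1 and 19.0% of these libraries. Cycling barcodes are deeper, and division genes outside the lists, such as Ska1 and Kifc1, were not left out. The part of depth and of such genes in this closeness was not tested.

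The bulk libraries gave measurements that the choice of barcodes did not use. They were compared with limma on log2(FPKM + 1), with Benjamini-Hochberg adjustment over 8307 genes and 3 libraries per condition. In bulk RNA fewer dividing cells and less RNA of these genes per cell cannot be told apart. The summed FPKM of the 9 gate genes, as mean ± SD with n = 3, was 278 ± 14.2 in 0 h M0 and 385 ± 20.2 in 24 h M0. After 1, 2 and 4 h of IL-4 the M2 means were 260, 247 and 243, followed by 220 ± 40.3 (6 h), 186 ± 17.7 (12 h) and 297 ± 53.0 (24 h). After 1, 2 and 4 h of LPS and IFN-γ the M1 means were 296, 311 and 138, followed by 58.7 (6 h), 16.8 (12 h) and 11.1 ± 3.22 (24 h). The sum was thus lowest in M2 at 12 h, while in M1 it was lower at each time from 4 h on. In single cells the gate sum over all barcodes was instead higher in 6 h M2 (874 CPM) than in 0 h M0 (645 CPM). It was also slightly higher in 24 h M2 (1033 CPM) than in 24 h M0 (989 CPM), where the bulk sum was lower. From 0 h M0 to 24 h M0 both measures rose. What sets the bulk and single-cell orders apart was not tested.

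**Figure D5:**
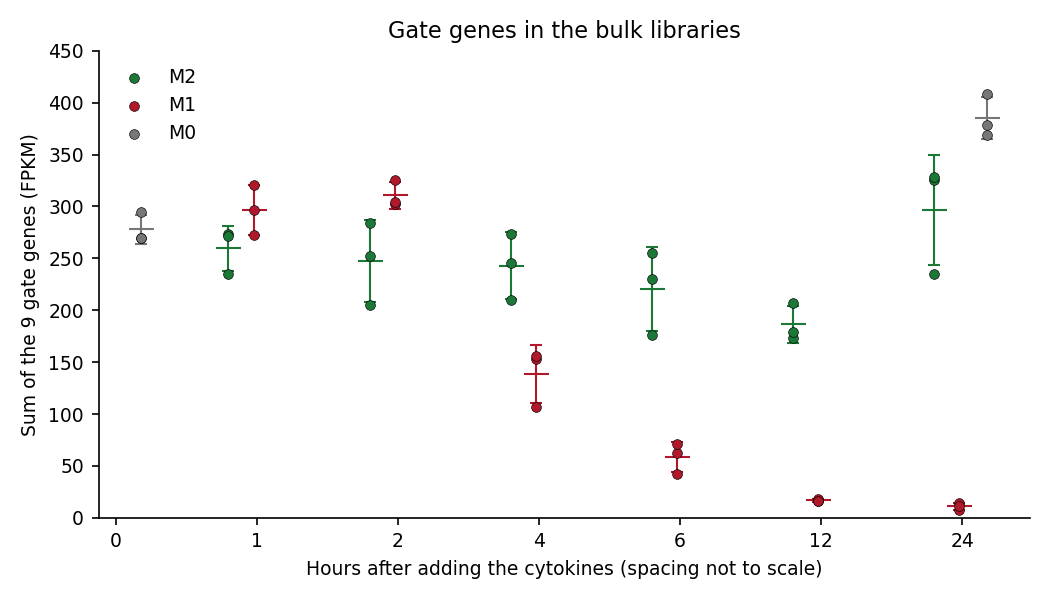
Summed FPKM of the 9 gate genes in every bulk library of the polarization time course against hours, for M2, M1 and M0; each point is 1 library, and the horizontal lines and error bars are the mean and SD of 3, with hours spaced evenly and not to scale. M1 libraries are near 11 at 24 h, where M2 libraries lie between 235 and 329 and M0 libraries between 369 and 408.

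The first bulk comparison asked whether cells kept in IL-4 for 24 h differ in cycle transcripts from cells kept in base medium. Cenpf fell, with 4.95, 4.26 and 6.12 FPKM in 24 h M2 against 10.2, 8.30 and 11.1 FPKM in 24 h M0 (log2 fold change -0.84, SE 0.24, limma adjusted p = 0.0032). The groups did not overlap. It was the only one of the 9 gate genes called lower, where 15.1% of all genes were lower and 18.5% higher, and with a pseudocount of 0.1 FPKM it was not called. Birc5 had 42.3, 36.1 and 48.0 FPKM in 24 h M2 against 60.8, 61.6 and 67.2 FPKM in 24 h M0, with no overlap either (log2 fold change -0.58, limma adjusted p = 0.214). Top2a had 75.4, 47.1 and 64.7 FPKM against 94.2, 75.5 and 76.2 FPKM (-0.41, limma adjusted p = 0.391). All 9 estimates were negative, with a median of -0.41. When only both groups were fitted, 3 gate genes were lower, Cenpf, Birc5 and Ube2c. With the replicate number added to that fit as a block, 6 gate genes were lower, at 23.7% of all genes lower and 28.3% higher. The adjusted p in that fit was 0.00214 for Birc5, 0.0164 for Top2a, 0.0167 for Ube2c, 0.033 for Pbk and 0.0383 for Mki67.

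Counts of the other cycle lists in this comparison are read against the 18.5% higher and 15.1% lower over all genes (28.3% and 23.7% with the block). Of 40 S-phase genes 7 rose and none fell, a share of rising genes near that of all genes. With the block 16 rose and none fell, a share of rising genes above that of all genes. Ung, which removes uracil from DNA, had 5.12, 4.53 and 5.87 FPKM in 24 h M2 against 1.46, 1.74 and 1.99 FPKM in 24 h M0 (log2 fold change 1.18). Dut, the dUTPase, had 35.9, 32.0 and 38.7 FPKM against 14.8, 13.5 and 19.4 FPKM (1.12). Of 60 G2/M genes 1 rose and 5 fell (3 and 23 with the block). Of 37 chromosome and spindle genes none rose and 3 fell (none and 16 with the block). In both lists the share of falling genes was below that of all genes without the block and above it with the block. Kif23, a motor of the spindle midzone, had 12.8, 9.61 and 13.3 FPKM in 24 h M2 against 24.9, 21.3 and 20.6 FPKM in 24 h M0 (-0.86, limma adjusted p = 0.0058). Myc, the growth transcription factor, rose, with 36.5, 29.9 and 39.2 FPKM against 7.00, 7.23 and 11.1 FPKM (1.96). Of 12 CDK inhibitor and growth arrest genes none rose and 6 fell (2 and 8 with the block). Among those that fell were Cdkn1c (p57), with 1.59, 1.16 and 1.96 FPKM against 7.03, 5.41 and 7.52 FPKM (-1.58), and Cdkn1b (p27, -1.18).

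The comparison of 6 h M2 with 0 h M0 gave the same direction for the gate. There was no bulk M0 library at 6 h, so IL-4 and 6 h of culture cannot be told apart here. Cenpf fell, with 3.27, 2.39 and 3.81 FPKM in 6 h M2 against 5.73, 4.45 and 5.23 FPKM in 0 h M0 (-0.57, SE 0.24, limma adjusted p = 0.0398). It was 1 of 9, where 19.0% of all genes were lower and 25.6% higher, and the call ended without M2 replicate 1 or 2, without M0 replicate 1 or 3, and with a pseudocount of 0.1 FPKM (-0.68 to -0.43 with 1 library left out). With the block 7 of 9 gate genes were lower (25.9% of all genes lower and 31.5% higher). Of 37 chromosome and spindle genes 11 fell and none rose (27 and none with the block), and of 60 G2/M genes 12 fell and 2 rose (34 and 5 with the block). Of 40 S-phase genes 4 rose and 4 fell (4 and 14 with the block). Cdkn1a (p21) rose, with 150, 194 and 196 FPKM in 6 h M2 against 50.7, 80.0 and 53.1 FPKM in 0 h M0 (1.56), and Ccnd1 rose too (1.51). Neutrophil genes moved with this comparison: 9 of 11 fell, their sum being 57.6 to 925 FPKM in 6 h M2 and 1040 to 2910 FPKM in 0 h M0. Their part in the cycle genes' change was not tested.

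Culture in base medium for 24 h gave 1 call among the gate genes. Cenpf had 10.2, 8.30 and 11.1 FPKM in 24 h M0 against 5.73, 4.45 and 5.23 FPKM in 0 h M0 (0.82, SE 0.24, limma adjusted p = 0.0471), where 0.626% of all genes were higher and 1.01% lower. The call was lost when any single library of either group was left out (0.74 to 0.93), with a pseudocount of 0.1 FPKM, and when only these groups were fitted. With the block Birc5 was also called (adjusted p = 0.0478), at 0.457% of all genes higher and 0.855% lower. All 9 gate estimates were positive (median 0.50), and no gene of the S-phase, G2/M or spindle lists passed the test, with medians of -0.05, 0.42 and 0.47. With the block 7 of 60 G2/M genes and 5 of 37 spindle genes were higher. Neutrophil genes moved here as well, 10 of 11 falling, with sums of 23.5 to 363 FPKM in 24 h M0 against 1040 to 2910 FPKM in 0 h M0. Their part was not tested. This comparison shares its 24 h M0 libraries with the first and its 0 h M0 libraries with the second.

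Of these 4 comparisons, the largest changes of the gate genes were in M1, where most cycle genes fell. All 9 gate genes were lower in 24 h M1 than in 24 h M0 (median log2 fold change -3.95), where 25.2% of all genes were lower and 35.4% higher. Birc5 had 0.42, 1.06 and 0.83 FPKM in 24 h M1 against 60.8, 61.6 and 67.2 FPKM in 24 h M0 (-5.20, limma adjusted p = 6.12e-25). Ube2c had 0.12, 0.45 and 0.20 FPKM against 49.2, 50.2 and 47.4 FPKM (-5.32). Cdk1 kept the highest level, with 4.44, 8.36 and 6.42 FPKM against 78.6, 83.3 and 86.3 FPKM (-3.53). Of 60 G2/M genes 55 fell and 1 rose, of 37 spindle genes 35 fell and 1 rose, and of 40 S-phase genes 35 fell and 3 rose. Cdkn1a rose against this direction, with 225, 202 and 194 FPKM in 24 h M1 against 65.1, 67.8 and 61.1 FPKM in 24 h M0 (1.66). Other lists moved with this comparison, with 27 of 28 ribosomal protein genes and 8 of 11 neutrophil genes falling and 1 neutrophil gene rising. The neutrophil genes summed to 64.8 to 80.8 FPKM in 24 h M1 and 23.5 to 363 FPKM in 24 h M0. Their part was not tested.

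The promoters of Top2a, Ube2c and Cdk1 are shown because the gate genes were low together in M1. Many G2 and mitotic promoters carry a cell cycle homology region near the start site and CCAAT boxes upstream, through which the DREAM complex and NF-Y act. Windows from 250 bases before to 50 bases after the start were taken from RefSeq (GRCm38.p6) for 8 of the 9 genes. TTTGAA on either strand was found in 6 of these 8, against 20.2% of all 27025 genes with a window, and CCAAT on either strand in 7 of 8, against 41.1%. The printed windows hold both. Birc5 (log2 fold change -5.20 in 24 h M1 against 24 h M0) held neither, and Ccnb1 (-3.50) held CCAAT but no TTTGAA. A link between these motifs and the levels was not tested. Capitals mark TTTGAA or its complement TTCAAA and CCAAT or its complement ATTGG. A match describes letters and is no shown site.
Top2a (chr11:99024140-99024439, minus strand): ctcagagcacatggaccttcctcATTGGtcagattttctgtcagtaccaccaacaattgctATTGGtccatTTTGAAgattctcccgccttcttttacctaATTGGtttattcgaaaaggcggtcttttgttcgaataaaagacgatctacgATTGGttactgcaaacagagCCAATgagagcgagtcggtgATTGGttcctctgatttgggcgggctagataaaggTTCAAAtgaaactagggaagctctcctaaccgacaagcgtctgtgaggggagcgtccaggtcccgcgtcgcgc
Ube2c (chr2:164769679-164769978, plus strand): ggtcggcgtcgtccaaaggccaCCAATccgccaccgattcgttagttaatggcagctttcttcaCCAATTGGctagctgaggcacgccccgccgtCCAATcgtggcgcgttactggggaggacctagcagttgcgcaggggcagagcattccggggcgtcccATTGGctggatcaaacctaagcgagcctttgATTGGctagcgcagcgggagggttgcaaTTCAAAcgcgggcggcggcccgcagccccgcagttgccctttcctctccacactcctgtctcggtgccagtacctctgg
Cdk1 (chr10:69352863-69353162, minus strand): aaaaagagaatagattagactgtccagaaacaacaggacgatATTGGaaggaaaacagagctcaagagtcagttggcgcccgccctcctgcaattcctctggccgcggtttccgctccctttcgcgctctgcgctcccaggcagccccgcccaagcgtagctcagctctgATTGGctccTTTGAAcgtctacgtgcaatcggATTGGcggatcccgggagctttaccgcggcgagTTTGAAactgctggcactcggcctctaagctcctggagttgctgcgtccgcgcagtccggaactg
The TTTGAA match nearest the start began 23 bases before it in Top2a, 29 in Ube2c and 15 in Cdk1.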

How the data were processed

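Single-cell RNA-seq of 7 cultures (1 library each) and bulk RNA-seq of 145 libraries in 48 conditions were used, and 9 ATAC-seq samples were not used here. The authors deposited single-cell UMI counts per gene and barcode for mm10, made with Cell Ranger from 10x libraries (version not given in the sources used here). The bulk values were deposited by the authors as log10(FPKM + 1), made with TopHat2 2.0.14 and Cuffnorm 2.2.2 per the submitters' processing notes, and hold only genes that reached 10 FPKM in at least 1 library. The replicates are stated to be biological, but whether they came from separate animals is not given.

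No barcode was removed from the single-cell tables and no doublet caller was run. Counts were summed over the barcodes of a class, and a log2 ratio compares the summed counts per 1000000 UMIs (CPM) with 1 UMI added to each sum. For ratios of cycling over 0-UMI barcodes, genes needed 50 UMIs over both classes in every library compared. For M2 over M0 the 50 UMIs could come from the M2 library alone, so genes with 0 UMIs in M0, such as Retnla, were counted. The 121 genes that share a symbol were left out. Intervals are exact at 95%. Thinning drew 500 or 1000 UMIs per barcode without replacement. The members, gene lists and tests were chosen with earlier results of these data known. The genes named are the gate genes, the 15 highest and 15 lowest by median ratio outside the cycle lists, and the most changed genes of each list, with a few others (Mcm3, Mcm4, Mcm6, Cdkn1a, Cd68, C1qb, Csf1r, Lyz2 and the lineage markers) given as list members after their values were seen. Some genes that this rule names are not reported here. The median over the 5 libraries is the ratio quoted for a gene.

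Bulk values were returned to FPKM and tested on log2(FPKM + 1) with limma 3.58.1 in R 4.3.3, fitting all 145 libraries with 1 mean per condition (97 residual degrees of freedom) and a trended prior, two-sided, with Benjamini-Hochberg adjustment and a threshold of 0.05. The authors' own test works on aligned reads, which were not used here. Simulated data with the design of 24 h M2 against 24 h M0 (8307 genes, 50 changed at each size) gave recovery of 42% at a log2 change of 0.5, 82% at 1, 98% at 2 and 88% at -1, with 9 false calls among 8107 unchanged genes. Libraries with the same replicate number deviated together, with correlations of 0.346 to 0.688 (24 h M2 and 24 h M0), 0.322 to 0.585 (24 h M0 and 0 h M0), 0.556 to 0.690 (6 h M2 and 0 h M0) and 0.168 to 0.479 (24 h M1 and 24 h M0). A fit with the replicate number as a block is therefore given for the gate genes where it changes a call. Outside M1 it is also given for changed S-phase, G2/M and spindle counts. Counts of other lists and of M1 changed too and are not all given. The pairing comes from the numbers in the labels and this check, since no label says what a number marks. Alternatives changed the gate, depth, UMI minimum, pseudocount, groups fitted and libraries. Neighbors were found with scikit-learn 1.9.0, and other steps used Python 3.11.15, numpy 2.4.6, scipy 1.17.1 and pandas 2.3.3.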

Additional observations from a re-analysis of the deposited data

Results flagged for a closer look

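The 6 h M1 library, which the choice of cycling barcodes left out, held 78 barcodes with 3 or more gate UMIs (2.40% of 3248), above the 0.0352% of the 24 h M1 library.

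MHC class II genes stood in opposite directions between libraries, differences that were not tested because each condition is 1 library. The log2 ratio of cycling over 0-UMI barcodes for H2-Aa was 1.53 in 24 h M2 and -3.46 in 6 h M0. For H2-Ab1 it was 1.25 in 24 h M2 and -4.31 in 6 h M0. For H2-Eb1 it was 1.70 in 24 h M2 and -4.45 in 6 h M0. The M2 over M0 log2 ratio of H2-Eb1 at 6 h was 3.21 in cycling and -0.45 in 0-UMI barcodes, also not tested. In 0-UMI barcodes of 6 h M0, the top 5% of barcodes held 93.5% of the MHC class II UMIs.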

How the results depend on the processing

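The share of cycling barcodes depended on the threshold and on depth. In the order 0 h M0, 6 h M2, 6 h M0, 24 h M2 and 24 h M0 it was 15.97, 33.59, 37.16, 32.93 and 24.72% with 2 or more gate UMIs, 5.397, 18.01, 19.13, 19.73 and 12.5% with 5 or more, 2.90, 4.36, 5.56, 5.51 and 4.51% after thinning to 500 UMIs, and 24.69, 29.12, 34.69, 33.29 and 26.06% among barcodes of 2000 to 6000 UMIs. Thinning to 1000 UMIs gave 11.7, 16.8, 15.1 and 13.2% in the last 4. The lysosome median was -0.40 in barcodes of 2000 to 6000 UMIs and -0.41 without the deepest 5%. The IL-4 list medians at 6 h were 4.69 in 0-UMI barcodes of 2000 to 6000 UMIs and, without the deepest 5%, 4.79 in cycling and 4.87 in 0-UMI barcodes. With no UMI minimum they were 3.54 in cycling and 4.09 in 0-UMI barcodes at 24 h. Without barcodes holding 10 or more MHC class II UMIs, an alternative added after seeing the data, the summed MHC class II log2 ratio was -0.22 in 24 h M0 and -0.073 in 24 h M2, against 0.32 and 0.53 with them, and this cuts on the value compared.

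In bulk, a fit of both groups alone with the replicate block gave 2349 genes higher and 1972 lower in 24 h M2 against 24 h M0, against 1233 and 1177 in the same fit without the block and 1538 and 1252 in the fit of all conditions. Beyond the calls and list counts given beside the results it changed no other gate gene call. Leaving out 1 library gave 1022 (without 24 h M0 replicate 1) to 1629 genes higher in that comparison, and 13 to 67 higher and 31 to 128 lower in 24 h M0 against 0 h M0. The last comparison had 1 gene higher and 20 lower when only its groups were fitted, and 33 higher and 138 lower after centring on the median of all genes, against 52 and 84. The gate median in 24 h M1 against 24 h M0 was -6.12 with a pseudocount of 0.1 FPKM, against -3.95. Cdk1 in 6 h M2 against 0 h M0 lay between -0.23 and 0.068 with 1 library left out (0.068 without 6 h M2 replicate 1 and 0.003 without 0 h M0 replicate 3), against -0.08. Centring shifted all values by 0.118 in 24 h M1 against 24 h M0 and by under 0.1 elsewhere. The causes of these changes were not tested. Depth limits the single-cell shares, and the depth of the bulk libraries is unknown.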
